A study of Mus musculus with 447 samples.

Results

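Regulated exocytosis is the step by which a secretory cell stores its product in granules and releases it on a signal. The 38 genes described here encode the proteins that dock, prime and fuse those granules, and were listed by name, by their known roles and not by their values. Of the 40824 genes counted, 37 of the 38 were found under the symbol given and Stxbp3 under its older symbol Stxbp3a. By known use, 21 were listed with endocrine secretion, 10 with acinar secretion and 7 with neither or both.

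The data are Smart-seq3 profiles, a plate method that reads full-length transcripts, of 447 GFP-positive cells sorted from E15.5 mouse fetal pancreas. Every cell came from a mouse carrying Neurod1 overexpression (Neurod1OE) under Pdx1Cre, a recombinase driven by a promoter of the pancreatic progenitors. The series' design text writes the driver as Pdx1CreER. The second genotype, labelled Pdx1CreNgn3KONeurod1OE and called Ngn3KO below, also carried a floxed Ngn3 (Neurog3) allele, so both genotypes overexpress Neurod1 and no unmodified cells were analysed here.

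The titles carry a set number, 2 or 3, whose meaning the labels do not give and which was treated as a batch. Set 2 held 322 cells, 36.3% of them Neurod1OE and 63.7% Ngn3KO, and set 3 held 95 Neurod1OE and 30 Ngn3KO cells. The labels name no embryo, so each genotype in a set is 1 sample, no test between groups was possible, and every interval below covers counting error only.

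In neurons and endocrine cells, fusion is carried out by a complex of Snap25 and syntaxin 1 on the plasma membrane with Vamp2 on the granule, held by complexins and triggered by calcium-binding synaptotagmins. Acinar cells of the exocrine pancreas release zymogen granules through a related set. Among its known parts are Snap23, syntaxins 2, 3 and 4, Vamp8, the Sec1/Munc18-type protein Stxbp2 and the small GTPases Rab3d and Rab27b. In both cell types Rab3 and Rab27 proteins and their effectors bring granules to the membrane, and Munc13, CAPS and RIM proteins prime them.

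Cells were placed in states by 2 secretory products, glucagon (Gcg) and the zymogen carboxypeptidase A1 (Cpa1), each with a limit of 1000 CPM, a gene's reads scaled to a common total in every cell or sum. In set 2, 312 cells were Gcg-high, 94.9% of the Neurod1OE and 98.05% of the Ngn3KO cells, and in set 3 there were 31 in Neurod1OE and 1 in Ngn3KO. Cpa1-high cells were found only in set 3, with 15 in Neurod1OE and 29 in Ngn3KO. A further 48 cells of Neurod1OE set 3 passed neither limit, 4 cells passed both, and 10 cells lay between 500 and 1000 CPM of Gcg and 3 between 500 and 1000 CPM of Cpa1. The sum of 15 acinar markers was 31247 CPM in the Cpa1-high Neurod1OE cells, 84241 CPM in the Cpa1-high Ngn3KO cells and 736 CPM in the Gcg-high cells of set 3. Reads of Neurog3 remained in the Ngn3KO cells, at 3.06 CPM in set 2 and 3.72 CPM in set 3, beside 3.89 and 17.8 CPM in Neurod1OE. In set 3 a single Neurod1OE cell reached 3053 CPM, so the sums do not check the genotype label. Median depth per cell lay between 344128 and 728074 reads in the 4 groups.

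Promoter sequence is shown for Stx1a and Sytl1, because each carries an E-box, the core bound by basic helix-loop-helix factors such as Neurod1, and because the endocrine-list Stx1a and the acinar-list Sytl1 differed in opposite directions below. The RefSeq table on GRCm38.p6 held a promoter for 28 of the 38 members, and the 250 bases before the start were searched on both strands for CAGCTG, which is its own reverse complement, for CAGATG, whose reverse complement is CATCTG, and for TTCAGCACC, the left part of the element bound by the neuronal repressor REST. CAGCTG stood in 9 of 28 members (32.1%) and in 12.4% of all 20595 promoters of that length, CAGATG in 1 of 28 (Stxbp2) and in 13.5% of all, and TTCAGCACC in 0 of 28 and in 0.291% of all. The members with CAGCTG were Stx1a, Rab3c, Cplx1, Cplx2 and Sv2a of the endocrine list, Stx4a and Sytl1 of the acinar list, and Syt16 and Rph3al. For Stx4a, Cplx2 and Rph3al the RefSeq start used lies 12538 to 68793 bases from the start of the counted gene in GENCODE M21, and for the other 6 within 790 bases. A match describes these letters only, and no binding was measured here. Capitals mark the searched letters in the 250 bases upstream of Stx1a (chr5:135023232-135023481, plus strand) and Sytl1 (chr4:133263088-133263337, minus strand).
Stx1a: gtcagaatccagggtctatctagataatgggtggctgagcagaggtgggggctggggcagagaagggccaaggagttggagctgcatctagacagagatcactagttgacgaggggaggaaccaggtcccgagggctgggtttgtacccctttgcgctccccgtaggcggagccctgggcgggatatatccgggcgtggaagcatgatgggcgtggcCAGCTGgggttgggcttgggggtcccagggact
Sytl1: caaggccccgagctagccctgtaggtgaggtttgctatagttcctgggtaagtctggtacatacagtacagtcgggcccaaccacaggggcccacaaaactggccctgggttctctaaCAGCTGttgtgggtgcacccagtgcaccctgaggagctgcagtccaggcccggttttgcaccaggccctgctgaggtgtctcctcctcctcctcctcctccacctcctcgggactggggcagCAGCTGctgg

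The members were first compared between the 2 product states of Neurod1OE set 3, which shared genotype and set. Cpa1-high cells held less of most of the neuronal and endocrine fusion machinery than Gcg-high cells, and of the acinar machinery Stx3, Stx4a and Rab3d were lower too, Snap23, Stx2, Vamp8, Stxbp2 and Stxbp3 were within 2-fold and Rab27b was higher. A gene counted as measured when at least 1 of the compared groups had 10 CPM or more and reads in at least 10% of its cells, and as higher or lower when the ratio after adding 1 CPM passed 2-fold. A gene with 10 CPM or more in 1 group only could therefore not be called higher in the other. Of 32 measured members 21 were lower and 1 was higher in the Cpa1-high cells, where 26% of 10683 measured genes were lower and 19.3% were higher. In the endocrine list 15 of 18 were lower and none was higher, with a median log2 ratio of -2.01. In the acinar list 3 of 9 were lower and 1 was higher, with a median of -0.47. The 7 members of neither list had 3 of 5 lower and a median of -1.11, and the median over all measured genes was -0.21.

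**Figure D1:**
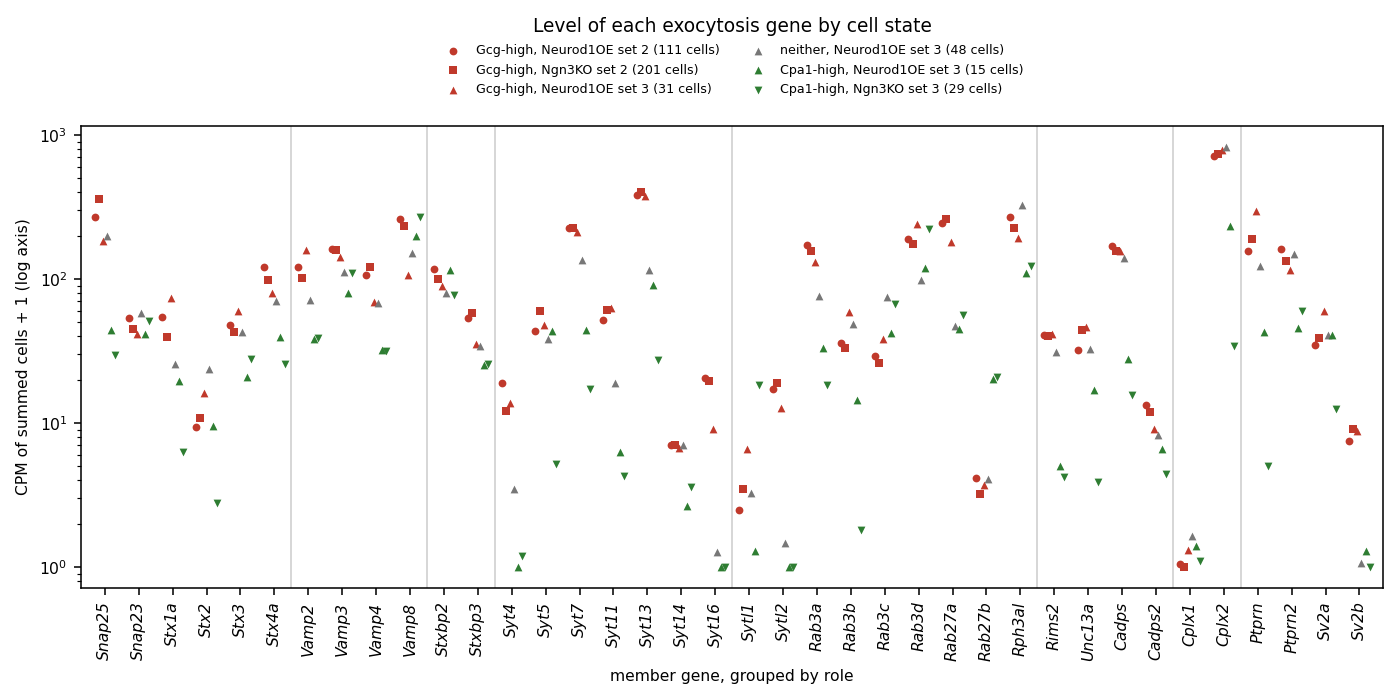
CPM of the summed cells, plus 1, on a log axis for each of the 38 members, grouped by role. Red marks the 3 Gcg-high groups, gray the cells of Neurod1OE set 3 with neither product and green the 2 Cpa1-high groups; most red points lie above the green ones, while Snap23, Stx2, Vamp8, Stxbp2, Sytl1, Rab3d and Sv2a overlap and Rab27b and Rab3c run the other way.

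Among the target SNAREs, the plasma-membrane side of the fusion complex, the neuronal isoform Snap25 stood at 269.8 CPM in Gcg-high Neurod1OE cells of set 2, 359 CPM in Gcg-high Ngn3KO cells of set 2 and 183.3 CPM in Gcg-high Neurod1OE cells of set 3. It was 43.1 CPM in the Cpa1-high Neurod1OE cells and 28.5 CPM in the Cpa1-high Ngn3KO cells, below all 3 Gcg-high sums. In set 3 this was a 4.26-fold lower level, and the median cell had 158.8 CPM (range 0 to 677) in the Gcg-high state and 2.96 CPM (0 to 307) in the Cpa1-high state. A single cell held 48.1% of the Snap25 reads of the 15 Cpa1-high Neurod1OE cells. The widely expressed isoform Snap23 did not follow: it was 40.6 CPM in Gcg-high and 40.7 CPM in Cpa1-high Neurod1OE cells, with 49.9 CPM in Cpa1-high Ngn3KO cells, and the 2 states overlapped cell by cell.

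Stx1a, the neuronal syntaxin, was 72.98 CPM in Gcg-high and 18.7 CPM in Cpa1-high Neurod1OE cells of set 3 (log2 ratio -1.91). The 3 acinar syntaxins were not higher in the Cpa1-high cells. Stx3, known on zymogen granules, was 58.999 against 19.9 CPM (-1.52), Stx4a 78.8 against 38.6 CPM (-1.01), and Stx2 15.3 against 8.60 CPM (-0.76, within 2-fold). Other genes overlap part of the exons of several members, at most 14.5% of the length, in Syt4. No source used here says whether counting used strand, so reads there cannot be told apart.

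On the granule side, Vamp2, a vesicle SNARE known from synaptic and insulin granules, was 158.2 CPM in Gcg-high and 37.6 CPM in Cpa1-high Neurod1OE cells, a 4.21-fold lower level. The median cell had 140.7 CPM (53.4 to 350.5) and 20.4 CPM (0 to 136.95). Vamp8, a SNARE of zymogen granules, ran the other way but within 2-fold, from 106.1 to 198.4 CPM (log2 ratio 0.90), with medians of 93.1 CPM (0 to 375) and 239 CPM (68.97 to 606). Every Cpa1-high cell had Vamp8 reads, and the Ngn3KO cells of that state stood at 270.4 CPM. Vamp8 was however 262 and 233 CPM in the Gcg-high cells of set 2, so the 2 states overlapped across sets. Vamp3, a SNARE of recycling endosomes, was lower by less than 2-fold (140.6 against 79.05 CPM), and Vamp4, a SNARE of the Golgi, was lower at 67.9 against 30.9 CPM.

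Stxbp2 and Stxbp3 belong to the Sec1/Munc18 proteins that hold syntaxins ready for fusion. Stxbp2 was 88.1 CPM in Gcg-high and 114.7 CPM in Cpa1-high Neurod1OE cells, and Stxbp3 was 34.4 and 24.5 CPM, both within 2-fold. A pseudogene of Stxbp3 is annotated, so its reads may be shared with that copy.

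The synaptotagmins are the calcium sensors of the granule and their relatives. Syt13, which lacks calcium binding, had the highest level per kilobase among them in Gcg-high cells. It was 380.3 and 405 CPM in the Gcg-high cells of set 2 and 379 CPM in those of set 3, against 90.3 CPM in Cpa1-high Neurod1OE and 26.5 CPM in Cpa1-high Ngn3KO cells. All 31 Gcg-high cells of set 3 had Syt13 reads, with a median of 311 CPM (29.5 to 1383), while the Cpa1-high Neurod1OE median was 2.56 CPM (0 to 701). Syt7, the high-affinity sensor of insulin and glucagon granules, was 211 against 43.6 CPM (log2 ratio -2.25), and Syt11 was 61.6 against 5.30 CPM (-3.31). Syt4, which modulates granule fusion, was 12.9 CPM in Gcg-high cells and had 0 reads in the Cpa1-high Neurod1OE cells. There 3 reads would be 0.171 CPM, so its sum was at least 75.3-fold lower, with 42.9% of the Gcg-high reads in 1 cell. Syt16 was also at 0 there against 8.02 CPM and did not reach the level needed to be measured, like Syt14 at 5.69 against 1.65 CPM.

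Syt5 stood apart from the other sensors, at 46.9 CPM in Gcg-high and 42.6 CPM in Cpa1-high Neurod1OE cells. The latter came from few cells: the Cpa1-high median was 0, 1 cell held 43.4% of the reads, and the Cpa1-high Ngn3KO cells had 4.18 CPM.

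The Rab proteins and their effectors tether granules. Rab3a, the neuronal Rab3, was 130.6 against 32.1 CPM between the 2 states of Neurod1OE set 3, Rab3b 57.6 against 13.4 CPM, and Rab27a, the Rab27 of endocrine granules, 179.5 against 44.3 CPM, each about 2 log2 units lower (-1.99, -2.03 and -1.99). Rab3c was not lower, at 37.1 and 41.1 CPM. Rab3d, the zymogen granule Rab3, was 242 CPM in Gcg-high and 117.5 CPM in Cpa1-high Neurod1OE cells, a ratio of -1.04 just past 2-fold. At 221 CPM in the Cpa1-high Ngn3KO cells it overlapped the Gcg-high sums, so Rab3d did not separate the states.

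Rab27b, the Rab27 of zymogen granules, was the 1 member called higher in Cpa1-high cells. It was under 10 CPM in the Gcg-high cells, so it could not have been called lower. It was 3.14, 2.24 and 2.69 CPM in the 3 Gcg-high sums and 19.1 and 19.9 CPM in the Cpa1-high Neurod1OE and Ngn3KO sums, 7.10-fold higher in set 3 (95% counting interval 5.38 to 9.51). Reads were seen in 6 of 31 Gcg-high cells, 6 of 15 Cpa1-high Neurod1OE cells and 18 of 29 Cpa1-high Ngn3KO cells. At 165298 reads drawn from every cell the shares came to 7.69%, 33.3% and 46.2%. The highest Cpa1-high cell had 96.97 CPM and 1 cell held 47.8% of the Neurod1OE reads. Even so, Rab27a remained the more abundant Rab27 in the Cpa1-high cells, at 11.4 CPM per kilobase of exon against 1.79 for Rab27b.

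Of the Rab effectors, Rph3al (noc2) was 190.5 against 108.7 CPM, within 2-fold. Sytl2, which binds Rab27a on glucagon granules, was 11.7 CPM in Gcg-high cells and at 0 in both Cpa1-high sums. The sum was at least 68.7-fold lower in Neurod1OE set 3, with 34.4% of the Gcg-high Sytl2 reads in 1 cell. Sytl1, an effector of Rab27b in acinar cells, was 5.55 and 0.285 CPM, below the level needed to be measured in that comparison.

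The 3 measured docking and priming genes were all lower in Cpa1-high cells. Rims2, a scaffold that binds Rab3, was 40.3 against 4.04 CPM, Unc13a (Munc13-1) 45.2 against 15.9 CPM, and Cadps (CAPS1) 155.9 against 26.9 CPM. Cadps2 was under 10 CPM in both. Of the complexins, clamps of the assembled SNARE complex, Cplx2 was the most abundant member per kilobase in all 3 Gcg-high sums, at 709.6, 740.1 and 783 CPM, whereas Cplx1 did not reach 1 CPM in any of the 6 sums. Cplx2 was 233 CPM in Cpa1-high Neurod1OE cells and 33.3 CPM in Cpa1-high Ngn3KO cells, with cell medians of 64.04 CPM (0 to 1583) and 8.90 CPM (0 to 414).

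Of the granule membrane proteins, Ptprn (IA-2), a tyrosine phosphatase-like protein of dense-core granules, was 298 CPM in Gcg-high and 42.03 CPM in Cpa1-high Neurod1OE cells, a 7.09-fold lower level. The Cpa1-high median was 1.28 CPM and 1 cell held 71.95% of the reads. Its relative Ptprn2 was 114.1 against 44.99 CPM (log2 ratio -1.32). Sv2a, a granule glycoprotein, was within 2-fold at 58.6 against 40.1 CPM, and Sv2b was 7.75 against 0.285 CPM, below the level needed to be measured.

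**Figure D2:**
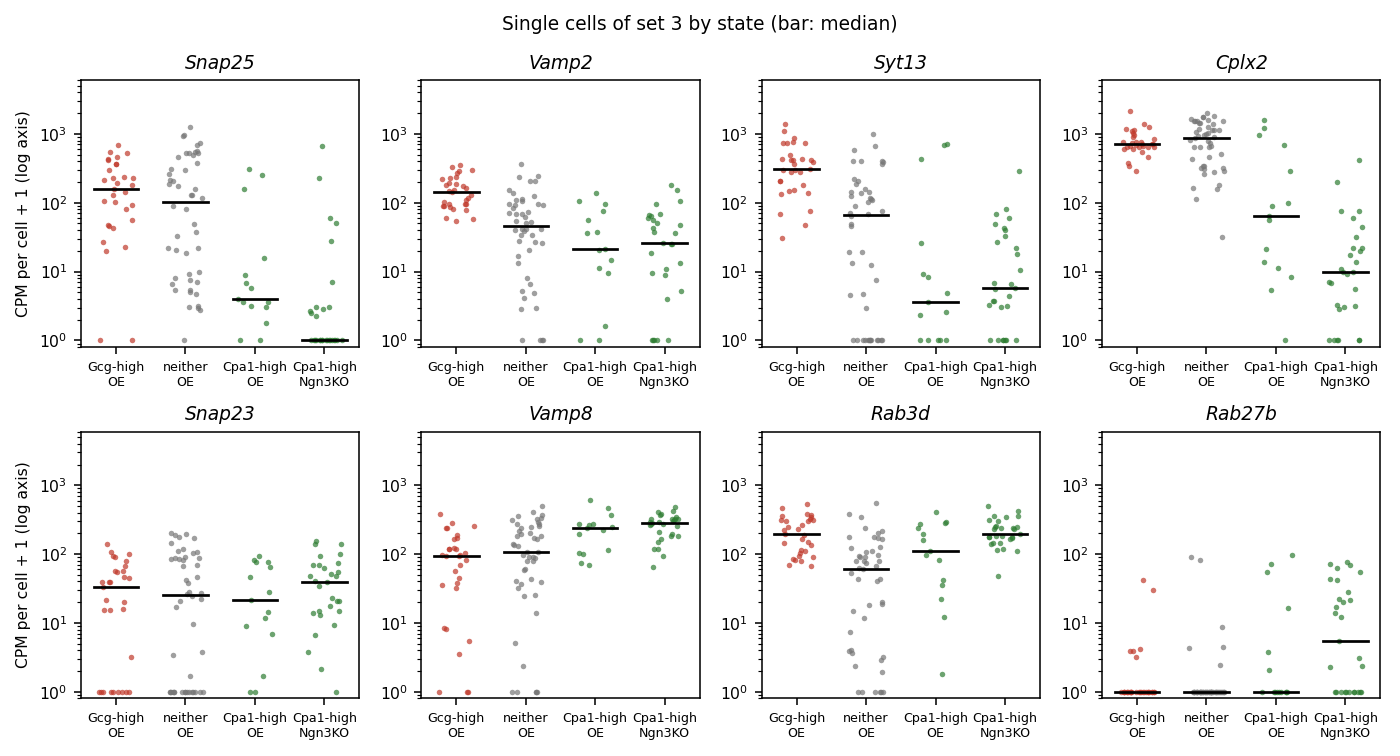
CPM per cell, plus 1, on a log axis for 8 members in the cells of set 3, with 1 point per cell and a bar at the median. Snap25, Syt13 and Cplx2 are high in the Gcg-high cells and in a few of the 15 Cpa1-high Neurod1OE cells, while Vamp8 is high in nearly all Cpa1-high cells.

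The Cpa1-high Neurod1OE cells differed among themselves. Of the 15 cells, 5 had Chga, the granule protein chromogranin A, at 2064 to 9978 CPM, and the other 10 had at most 14.4 CPM. These 5 cells held 21.2% of the reads of the state but a median of 83.9% of the reads of the 16 endocrine-list members with at least 100 reads (47.6% to 98.5%), and a median of 24.2% for 9 acinar-list members (0% to 43.5%). Of Snap25 they held 95.8%, of Syt13 98.5% and of Ptprn 98.4%. Chga was looked at after the data were seen. Depth per cell was 253950 to 1433050 reads in these 5 cells and 197087 to 2468483 in the other 10, with a median of 1375505 for the state against 682756 in the Gcg-high cells, and doublets were not tested for. Among the 29 Cpa1-high Ngn3KO cells 3 had Chga at 1024 to 4837 CPM, and the highest of the others was 763 CPM. Those 3 held 8.76% of the reads of the state. Of the 12 endocrine-list members with at least 100 reads they held a median of 35.5% (5.65% to 90.9%). For 9 acinar-list members the median was 12.6% (1.65% to 26.7%). They held at least 50% for 3 of the 12, Snap25 (90.9%), Cplx2 (61.1%) and Stx1a (58.9%), and 46.6% of Syt13. In 5 of the 15 Neurod1OE cells the zymogen gene Ctrb1 was under 1000 CPM, and 4 of them were among the 5 with Chga.

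With the 10 cells at or above 1000 CPM of Ctrb1 alone, a choice made after seeing the data, Snap25 was 2.35 CPM (log2 ratio -5.78 to the Gcg-high cells), Syt13 2.76 CPM (-6.66), Ptprn 0.811 CPM (-7.37) and Cplx2 38.05 CPM (-4.33). Vamp8 was 200.1 CPM (0.91), Snap23 39.5 CPM (-0.04) and Rab27b 27.01 CPM (2.93) in them. In that setting Syt5 too was lower (-2.46), and in all 25 of 32 members were lower and 1 was higher, where 33.2% of genes were lower and 20.7% higher. Most of the 10 cells were female, against 5 of 31 Gcg-high cells, so sex was not held equal here.

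**Figure D3:**
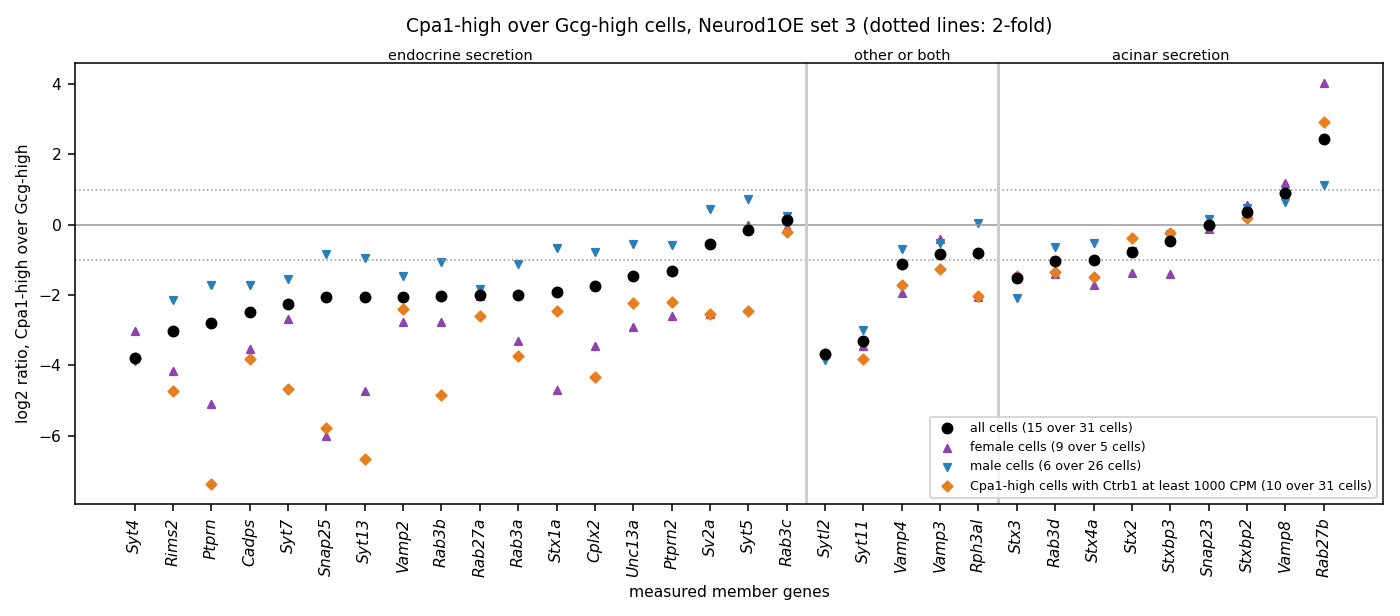
Log2 ratio of Cpa1-high over Gcg-high cells of Neurod1OE set 3 for the 32 measured members, with dotted lines at 2-fold, for all cells, female cells, male cells and cells with Ctrb1 at or above 1000 CPM. The endocrine-list points spread from about -7 to above 0 across the 4 settings, and Rab27b lies above 2-fold in each; Sytl2 has no female point because both sums were 0.

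Sex, read from Xist and Y-linked genes of each cell, moved with state, with 5 female and 26 male cells among the Gcg-high and 9 female and 6 male among the Cpa1-high cells. Within male cells 12 of 31 measured members were lower and none higher, where 23.1% of genes were lower and 19.8% higher, and Snap25 (-0.84), Syt13 (-0.94) and Cplx2 (-0.78) were inside the limit. Rab27b, at 2.95 and 7.60 CPM in male cells (1.12), was past 2-fold but below the 10 CPM that a measured gene needs. Within female cells Snap25 was -6.02 and Syt13 -4.73. Of the 6 male Cpa1-high cells 3 were among the 5 with Chga. The 3 male cells without Chga had Snap25 at 2.18, 4.70 and 2.96 CPM, Syt13 at 7.27, 0 and 3.94 CPM and no Syt7 reads. The 2 female cells with Chga had Syt13 at 24.6 and 429 CPM and Syt7 at 113.2 and 464.7 CPM. Their Snap25 was only 14.8 and 7.88 CPM, against 307.1, 254 and 154.5 CPM in the 3 male cells with Chga. Whether sex or Chga goes with these levels was not tested.

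Across sets, the 3 Gcg-high sums were set against the 2 Cpa1-high sums, a comparison added after seeing the data. Of 35 measured members, 26 were higher in all 3 Gcg-high sums than in both Cpa1-high sums, as were 41.8% of 11324 measured genes, and 18 of them by at least 2-fold, against 14.3% of genes. By list, 17 of 19 endocrine members and 3 of 10 acinar members were ordered so. Rab27b and Rab3c were higher in both Cpa1-high sums, the order of 20.3% of genes, and Rab27b alone by at least 2-fold, as were 6.91% of genes. The 7 members whose states overlapped were Snap23, Stx2, Vamp8, Stxbp2, Sytl1, Rab3d and Sv2a, and all but Sv2a are of the acinar list.

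The 48 cells with neither product carried pan-endocrine markers at a summed 6787 CPM, against 14139 CPM in Gcg-high cells, and endocrine progenitor markers at 1087 against 364 CPM. Per cell their pan-endocrine sum ran from 92.9 to 21359 CPM and their duct and trunk sum from 27.1 to 18937 CPM, so they are named here only by the rule. Comparing them with the Gcg-high cells of the same group was added after seeing the data, and both state comparisons share those 31 cells. Of 31 measured members 9 were lower and 0 higher in them, where 12.3% of 10839 genes were lower and 19.2% higher. The list of lower members was Sytl2 (log2 ratio -3.12, but 1.71 within female cells, where the 5 Gcg-high cells had no reads), Syt4 (-2.00), Rab27a (-1.93), Syt11 (-1.72), Syt13 (-1.71), Stx1a (-1.51), Rab3d (-1.31), Ptprn (-1.28) and Vamp2 (-1.16).

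Parts of the machinery stood at unequal levels in these cells. Cplx2 was 832 against 783 CPM, Snap25 198.2 against 183.3 CPM and Cadps 139.7 against 155.9 CPM, all close to the Gcg-high level, while Syt13 was 115.2 against 379 CPM and Rab27a 46.5 against 179.5 CPM. Cell by cell, Rab27a had a median of 1.35 CPM and a highest value of 834 CPM in the cells with neither product, and Cplx2 a median of 878 CPM with no cell under 30.8 CPM. The effector Rph3al was 324 against 190.5 CPM and Rab3c 73.9 against 37.1 CPM, the 2 highest ratios at 0.77 and 0.97. The all-gene median of this comparison was 0.18 and that of the members -0.34.

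Between genotypes, no measured member passed 2-fold in the Gcg-high cells of set 2. The count was 0 of 32 in Ngn3KO over Neurod1OE, where 0.921% of 9986 genes were higher and 1.44% lower. The log2 ratios ran from -0.64 for Syt4 (17.9 to 11.1 CPM) to 0.47 for Syt5 (42.7 to 59.4 CPM), with 0.41 for Snap25, 0.46 for Unc13a and -0.48 for Stx1a at the ends, and a median of -0.08 beside -0.06 for all genes. With all cells of set 2 the result was the same in kind, 0 of 32 and a range of -0.52 to 0.54, where 0.859% of genes were higher and 1.67% lower. The Ngn3KO cells of set 2 with a sex call were all female, while the Neurod1OE cells were of both sexes, and sex was not tested apart from genotype beyond the female-only values given at the end.

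The same genotype and state had a wider range of ratios between sets than the genotypes had within set 2. In Gcg-high Neurod1OE cells of set 3 over set 2, 2 of 33 members were lower and 0 higher, where 8.32% of 10349 genes were lower and 7.35% higher. The 2 were Vamp8 (262 to 106.1 CPM, log2 ratio -1.29) and Syt16 (19.5 to 8.02 CPM, -1.18, but 0.44 within male cells). Ptprn, at 154.7 and 298 CPM, was the highest of the rest at 0.94.

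**Figure D4:**
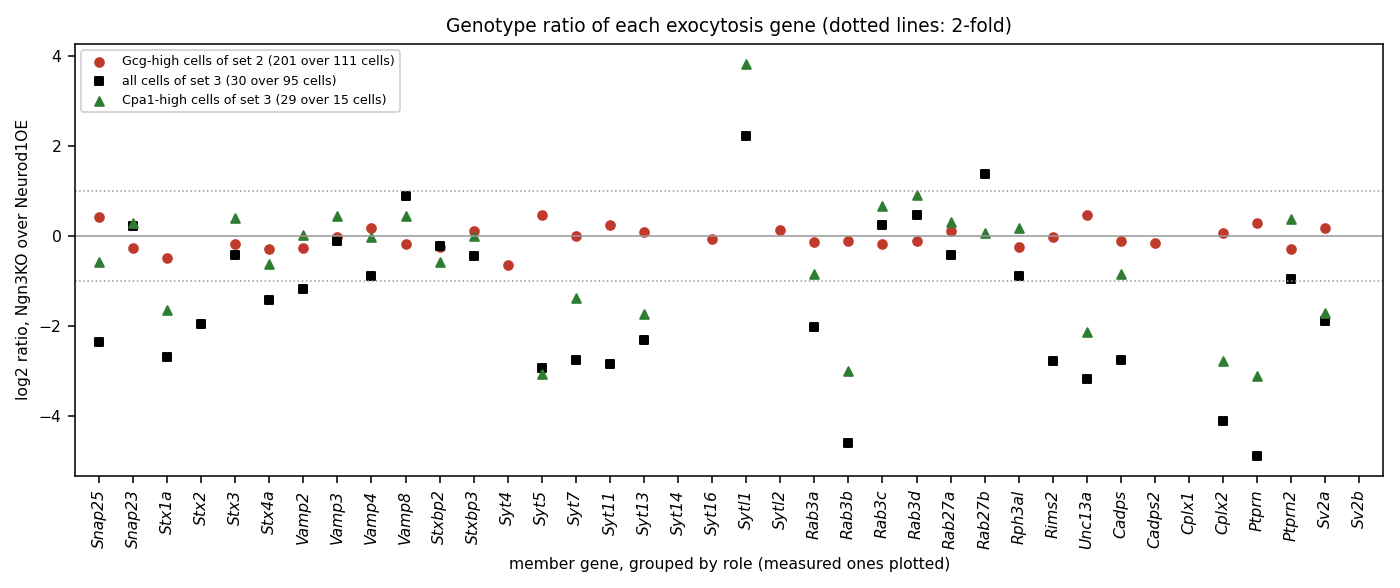
Log2 ratio of Ngn3KO over Neurod1OE for the measured members in Gcg-high cells of set 2, in all cells of set 3 and in Cpa1-high cells of set 3, with dotted lines at 2-fold. The set 2 points all lie between -0.64 and 0.47, the set 3 points reach -4.89 for Ptprn, and Sytl1 is the highest point in both set 3 comparisons.

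In set 3 the genotypes differed in cell makeup: 29 of 30 Ngn3KO cells were Cpa1-high, against 15 of 95 Neurod1OE cells. Over all cells of set 3, 17 of 31 members were lower in Ngn3KO and 2 higher, where 31.8% of 10478 genes were lower and 5.96% higher. The endocrine list had 14 of 17 lower with a median of -2.69. Ptprn went from 156.2 to 4.30 CPM (log2 ratio -4.89), Rab3b from 41.8 to 0.770 CPM (-4.60) and Cplx2 from 666 to 37.7 CPM (-4.11). The acinar list had 2 of 10 lower, Stx2 (log2 ratio -1.95) and Stx4a (-1.42), and 2 higher, with a median of -0.005. The higher members were Sytl1 (2.78 to 16.6 CPM, 2.22) and Rab27b (6.86 to 19.4 CPM, 1.38). Both were under 10 CPM in Neurod1OE, so neither could have been called lower. In these sums a different share of cell states and a different level per cell cannot be told apart.

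Within the Cpa1-high cells, a comparison added after seeing the data, 9 of 28 members were lower and 1 higher in Ngn3KO, where 18% of 9588 genes were lower and 4.37% higher. All 9 were of the endocrine list, led by Ptprn (42.03 to 3.99 CPM, log2 ratio -3.11), Syt5 (42.6 to 4.18 CPM, -3.07), Rab3b (13.4 to 0.799 CPM, -3.00) and Cplx2 (233 to 33.3 CPM, -2.77). The others were Unc13a (-2.13), Syt13 (-1.73), Sv2a (-1.71), Stx1a (-1.65) and Syt7 (-1.38). This comparison shares the 15 Neurod1OE cells with the state comparison above. It depended on the 5 Neurod1OE cells low in Ctrb1: with those left out only Unc13a (-1.35) and Stx1a (-1.13) of 25 were lower and 8 members were higher, where 15% of genes were lower and 8.34% higher, and Syt13 (2.87), Ptprn (1.46), Syt7 (1.03) and Sv2a (0.28) changed sign. The Ctrb1 limit left out 4 of the 5 Neurod1OE cells with Chga and none of the 3 such Ngn3KO cells, which left 1 of 10 and 3 of 29 cells with Chga. Most of those 10 cells were female and all 29 were male.

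Sytl1 was higher with and without those cells, at 3.83 and 3.70. It was measured through the Ngn3KO cells alone, so it could not have been called lower. Its reads were in 2 of 15 Neurod1OE cells (0.285 CPM) and in 13 of 29 Ngn3KO cells (17.2 CPM, highest cell 77.9 CPM). Acinar markers were also higher in the Ngn3KO cells, with a median Ctrb1 of 17857 CPM (3616 to 62255) against 4364 CPM (2.06 to 41902), and all Ngn3KO cells with this state were male against 6 of 15. Their part in the Sytl1 difference was not tested.

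Of the other genes of the pathway on the list, all but Pclo were found under their symbols. In Cpa1-high over Gcg-high cells 25 of the 66 measured were lower and 6 higher (median -0.61), against 26% and 19.3% of all measured genes. Among the first by size of ratio were Ppfia4 (0.538 to 25.5 CPM), Rab37 (206 to 14.4 CPM), Synpr, Stxbp5l and Stxbp6 (5.87 to 57.5 CPM). In the cells with neither product 10 of 65 were lower and 6 higher, against 12.3% and 19.2% of all measured genes. Rab37 at 23.9 CPM and Stxbp6 at 41.5 CPM were again among the first 6, beside Slc18a1 (-3.39), Bsn (-1.84), Baiap3 (-1.65) and Sytl5 (1.61).

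Between genotypes in the Gcg-high cells of set 2, 2 of 67 of these genes were higher and 1 lower. Of all measured genes 0.921% were higher and 1.44% lower. The pathway genes called were Sytl4 (granuphilin, 3.73 to 17.5 CPM, with 60.95% of the Ngn3KO reads in 1 cell), Doc2b (4.47 to 12.5 CPM) and Syt1, the synaptic calcium sensor (10.6 to 3.46 CPM). Syn3 (0.89), Slc18a2 (0.86) and Napb (0.83) came next, within 2-fold. Over all cells of set 2 Sytl4 (2.14) and Doc2b (1.36) were higher and none of 66 was lower, against 0.859% and 1.67% of genes. Between sets in Gcg-high Neurod1OE cells 4 of 66 were higher and 3 lower, against 7.35% and 8.32% of all measured genes. Largest by size of ratio were Syt1 (10.6 to 0.896 CPM), Napb (14.05 to 70.1 CPM), Ppfia2 (46.4 to 10.4 CPM), Doc2b, Baiap3 and Slc18a1. Of the Napb reads 1 cell held 46.1% in set 3 and 1 cell 56.2% in set 2.

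Over all cells of set 3, 25 of 65 were lower and 4 higher in Ngn3KO, against 31.8% and 5.96% of all measured genes. Largest by size of ratio were Baiap3, a Munc13 relative (226 to 4.80 CPM), the vesicle protein Syp (79.6 to 4.49 CPM), Ppfia2, Rab37, Ppfia3 and Rimbp2. In Cpa1-high cells 12 of 62 were lower and 2 higher, against 18% and 4.37% of all measured genes. First there were Baiap3 (58.6 to 4.09 CPM), Rab37 (14.4 to 0.939 CPM), Syp (29.8 to 4.37 CPM), Slc18a1, Rimbp2 and the monoamine transporter Slc18a2 (89.1 to 18.2 CPM). In Neurod1OE 1 cell held 49.9% of the Baiap3 reads of that state and 1 cell 55.8% of the Syp reads.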

How the data were processed

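Read counts per gene and cell were analysed as the authors deposited them. Per the submitters' processing notes, Trimmomatic 0.39, HISAT2 2.1.0, featureCounts 2.0.0 and mm10 were used, with roles and strand setting not given in the sources used here. Spike-in transcripts were left out of the totals. The members, their lists and the comparisons were chosen with earlier results of these data known. All 38 members were named whatever their values, and of the other pathway genes the 6 with the largest absolute log2 ratio among those measured in each comparison, except where a gene is not reported here.

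Counts of the cells of a group and state were summed, scaled to CPM, and compared as the log2 ratio after adding 1 CPM, which understates ratios of low genes. Measured genes had 10 CPM and reads in 10% of cells in 1 group, and calls needed a 2-fold ratio. With 1 sample per genotype there was no test. Intervals are exact at 95% (Poisson for sums, Clopper-Pearson for shares), and a count of 0 was bounded by 3 reads. PCR copies make reads other than independent molecules, so intervals cover counting error only. Shares were also taken with each cell thinned to 165298 reads, leaving out 45 shallower cells. Sex was called at 10 CPM of Xist or of 4 Y-linked genes. Exon lengths and overlaps came from GENCODE M21 on mm10, promoters from RefSeq on GRCm38.p6. Alternatives covered scaling (edgeR 4.0.16 TMM and DESeq2 1.42.0 size factors, with R 4.3.3), pseudocount, filters, fold and state limits, left-out cells and sexes. The code was checked on simulated counts. Python 3.11.15, numpy 2.4.6, scipy 1.17.1, pandas 2.3.3 and matplotlib 3.10.9 were used.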

Additional observations from a re-analysis of the deposited data

Results flagged for a closer look

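In 10 of the 28 members measured in both sets (35.7%) the genotype ratio had opposite signs in the sets and passed 2-fold in set 3. Over all 9476 genes measured in both, 17% had opposite signs and passed 2-fold in either set. The log2 ratio of Ngn3KO over Neurod1OE in set 3 minus that in set 2 was -5.26 for Ptprn (-4.89 and 0.38), -4.20 for Cplx2 (-4.11 and 0.09), -3.70 for Unc13a (-3.17 and 0.53), -3.47 for Syt5 (-2.93 and 0.54) and -3.07 for Syt11 (-2.83 and 0.24). It was -2.83 for Rims2 (-2.76 and 0.07), -2.79 for Snap25 (-2.35 and 0.44) and -2.79 for Syt7 (-2.76 and 0.03). For Syt13 it was -2.45 (-2.32 and 0.13) and for Sv2a -1.99 (-1.88 and 0.11). No measured member passed 2-fold in set 2, and the set 2 counting intervals of Syt7 and Rims2 included no change. The opposite signs thus rest on small set 2 ratios. The difference was not tested, since each genotype in a set is 1 sample. The cell states differ between these groups: 29 of 30 Ngn3KO cells of set 3 were Cpa1-high, and 98.05% of the Ngn3KO cells of set 2 were Gcg-high.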

How the results depend on the processing

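No paired analysis was possible because the numbers in the titles only name cells and no test was run. Each genotype in a set is 1 sample and the number of embryos is not given, so no value here has a replicate check. For Cpa1-high over Gcg-high cells, 11 of 22 called members passed 2-fold in all settings counted. These were Cadps, Ptprn, Rab27a, Rab27b, Rab3a, Rab3b, Rims2, Syt11, Syt4, Syt7 and Vamp2. Of the 13 settings, the 1.5-fold limit was left out of this count, and the setting without a filter leaves each ratio unchanged. The low-count filter was not applied again for this count, and with male cells alone Rab27b was below the 10 CPM it needs. With male cells alone the lower count was 12 and the higher count 0. The higher count was 2 with TMM, DESeq2 size factors, a mean of per-cell CPM, a 1.5-fold limit, a state limit of 5000 CPM or female cells alone. Of all measured genes 25.6% were higher and 34.5% lower in female cells, and 19.8% and 23.1% in male cells. In this section such shares are given only for the splits by sex and by Ctrb1. Scaling by TMM moved the all-gene median there from -0.21 to -0.02 and that of the members from -1.49 to -1.31.

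For the cells with neither product the higher count went from 0 to 1 without each gene's top cell, with a state limit of 500 CPM, in female cells or in male cells, and to 2 at 1.5-fold. Of all measured genes 27.8% were higher in female and 20.6% in male cells. Sytl2 turned to 1.71 in female cells. In Gcg-high cells of set 2 the lower count between genotypes went from 0 to 1 at 1.5-fold or in female cells and to 2 in cells under 10 CPM of Gm12338, a gene by whose level set 2 was also divided, and the higher count to 1 in cells at or above it. Over all cells of set 2 the higher count was 1 in female cells and on either side of that Gm12338 limit, and the lower count 1 in female cells and under it. In female cells 1.9% of all measured genes were higher and 2.73% lower over all cells of set 2. In its Gcg-high female cells 2.24% were higher and 1.92% lower. Between sets, the higher count went from 0 to 1 with no filter, 4 at 1.5-fold, 4 in female and 3 in male cells. The lower count went from 2 to 1 with a pseudocount of 5 CPM, 4 with a mean of per-cell CPM, 5 at 1.5-fold, 7 in female and 1 in male cells, where Syt16 turned to 0.44. Both sexes had 32 measured members between sets. Of all measured genes 16.8% were higher and 20.5% lower in female cells, and 12.1% and 13.3% in male cells.

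For genotypes in set 3 DESeq2 size factors raised the higher count from 2 to 4. They moved the all-gene median from -0.57 to 0.03 and that of the members from -1.42 to -0.87. Within the Cpa1-high cells the higher count was 2 with TMM, DESeq2 size factors or without each gene's top cell. It was 3 at 1.5-fold or in male cells, 4 at a state limit of 5000 CPM, where Syt13 turned to 1.53 and Ptprn to 0.37, and 8 with Ctrb1 at or above 1000 CPM, where the lower count was 2 and Syt13 (2.87), Ptprn (1.46), Syt7 (1.03) and Sv2a (0.28) turned. Of all measured genes 8.21% were higher and 26.2% lower in male cells, and 8.34% and 15% with that Ctrb1 choice. In the order of sums, 1 member was higher in both Cpa1-high sums with that Ctrb1 choice or at 2-fold. The causes were not tested. Male cells alone in set 2 and female cells alone between genotypes in set 3 left under 4 cells in 1 group and were not run.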
